A study of Homo sapiens with 2 samples.

Results

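Chromosome 13 was followed gene by gene, from its centromere to its far end, in RNA sequencing data from 2 established human leukaemia cell lines. Its members are all 1398 rows of the authors' deposited gene table whose locus lies on chromosome 13, of 60586 rows in all. A ratio between the lines was formed only for genes whose levels in the lines averaged 1 FPKM or more, and 224 of the 1398 rows passed that floor. FPKM counts sequenced fragments, divided by transcript length and by how many fragments the library gave. K562 is a leukaemia line that the labels describe as erythrocyte, and MOLT4 is one they describe as T lymphoblast. Both were grown at 37 °C and 5% CO2 in DMEM that held 1% penicillin-streptomycin and 10% FBS (fetal bovine serum), and RNA was taken from 1 flask of each, with no treatment given in the labels. Each line has 1 listed sample and 1 deposited value per gene, although the design text speaks of 3 biological replicates, and replicate spread therefore cannot be given. Each line is a single culture grown from a tumour, and a lower level cannot be told apart as less RNA per cell or fewer cells that hold it.

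The lines carried the markers of their labels. All 6 erythroid markers, among them GATA1 and KLF1, were higher in K562 and all 6 T cell markers, among them CD3E and TCF7, were higher in MOLT4. The markers summed to 864 FPKM in K562 and 130 in MOLT4 for the erythroid set, and to 5.42 and 2141 FPKM for the T cell set. Nearly all of the erythroid sum in MOLT4 was TFRC, at 129.9 FPKM there and 181 in K562. LCK of the T cell set, at 250 FPKM in MOLT4 and 0.0480 in K562, had a Cuffdiff q-value of 0.0833. Of 5 markers of other cells, the lysozyme gene LYZ and the epithelial gene EPCAM reached 105 and 52.8 FPKM in K562, and the endothelial and platelet gene PECAM1 reached 41.2 FPKM in MOLT4. Their part in the results was not tested.

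Human chromosome 13 is acrocentric, so its unique genes lie on the long arm alone, and it is one of the chromosomes poorest in genes. It is known in blood cancers for RB1, the retinoblastoma gene that holds back entry into S phase, for a band often deleted in lymphoid leukaemia that holds the DLEU genes with the microRNAs miR-15a and miR-16, and for the host gene of the growth-promoting miR-17 cluster. It also carries BRCA2, which loads the recombinase at DNA breaks. Chromosome 13 was chosen with its ratios already known, and the floor uses the levels of both lines, so the ratios below are a description and are given without a test of their own. A gene is said to be called where the q-value that the authors' Cuffdiff run gave, adjusted over all tested genes, was at most 0.05.

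The mature microRNAs of the host genes DLEU2 and MIR17HG are shown because DLEU2 had its higher value in MOLT4 and MIR17HG in K562. The sequences are those of RefSeq on GRCh38.p14, 5′ to 3′, and the capitals mark the seed, bases 2 to 8, by which a microRNA pairs with its targets.
hsa-miR-15a-5p: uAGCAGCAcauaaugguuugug
hsa-miR-16-5p: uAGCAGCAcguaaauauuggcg
hsa-miR-17-5p: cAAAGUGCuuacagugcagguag
hsa-miR-20a-5p: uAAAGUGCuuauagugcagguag
hsa-miR-18a-5p: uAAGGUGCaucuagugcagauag
hsa-miR-19a-3p: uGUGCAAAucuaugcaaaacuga
hsa-miR-19b-3p: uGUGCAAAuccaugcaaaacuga
hsa-miR-92a-3p: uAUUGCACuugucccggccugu
The 8 microRNAs shared 5 seeds: miR-15a and miR-16 held one, miR-17 and miR-20a another, miR-19a and miR-19b a further one, and miR-18a and miR-92a each had their own. MIR17HG (ENSG00000215417.13, chromosome 13, 91347820 to 91354579, GRCh38) was at 3.25 FPKM in MOLT4 and 13.1 in K562, a 4.02-fold higher level in K562 that was called in the authors' deposited table (q = 0.000203). DLEU2 (chromosome 13, 49982552 to 50125720) was at 24.8 FPKM in MOLT4 and 10.7 in K562, and was not called in the authors' deposited table (q = 0.0943). Levels of the mature microRNAs were not measured by this assay. Of the 40 rows that GENCODE types as microRNA hairpins, 38 were listed at 0 in both lines, those of miR-15a, miR-16 and the miR-17 cluster included.

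Promoters of 4 of the genes with the largest called differences, 2 in each direction, are shown from RefSeq (GRCh38.p14, 250 bases before to 50 bases after the most upstream start its table holds for the gene), with each CG dinucleotide in capitals.
LPAR6 (chr13:48413064-48413363, minus strand): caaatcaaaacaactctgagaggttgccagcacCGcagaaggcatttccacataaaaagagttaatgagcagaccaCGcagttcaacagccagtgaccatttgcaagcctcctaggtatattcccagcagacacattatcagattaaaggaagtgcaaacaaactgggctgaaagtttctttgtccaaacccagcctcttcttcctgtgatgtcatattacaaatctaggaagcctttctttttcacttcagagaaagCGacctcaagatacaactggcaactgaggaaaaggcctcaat
SLAIN1 (chr13:77697437-77697736, plus strand): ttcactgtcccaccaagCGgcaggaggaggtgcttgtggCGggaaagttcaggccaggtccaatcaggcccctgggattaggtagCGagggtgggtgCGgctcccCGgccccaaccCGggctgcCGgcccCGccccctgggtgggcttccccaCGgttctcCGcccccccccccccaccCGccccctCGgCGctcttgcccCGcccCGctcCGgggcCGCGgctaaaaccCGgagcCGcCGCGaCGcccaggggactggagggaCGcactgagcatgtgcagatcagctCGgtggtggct
COL4A2 (chr13:110307034-110307333, plus strand): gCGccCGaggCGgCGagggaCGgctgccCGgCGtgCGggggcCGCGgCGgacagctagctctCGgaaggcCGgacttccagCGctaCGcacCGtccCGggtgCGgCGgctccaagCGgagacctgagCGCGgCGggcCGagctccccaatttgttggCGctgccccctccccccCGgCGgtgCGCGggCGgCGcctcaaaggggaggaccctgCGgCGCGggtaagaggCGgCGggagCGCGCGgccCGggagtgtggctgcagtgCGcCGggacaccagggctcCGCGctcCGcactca
ABCC4 (chr13:95301402-95301701, minus strand): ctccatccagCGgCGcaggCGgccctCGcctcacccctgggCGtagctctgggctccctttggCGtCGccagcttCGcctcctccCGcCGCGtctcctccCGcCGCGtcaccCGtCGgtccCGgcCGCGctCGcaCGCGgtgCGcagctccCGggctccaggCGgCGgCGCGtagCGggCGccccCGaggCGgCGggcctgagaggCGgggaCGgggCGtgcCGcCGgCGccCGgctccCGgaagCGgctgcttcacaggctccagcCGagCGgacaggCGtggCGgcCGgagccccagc
With 1 FPKM added to each level, LPAR6 and SLAIN1 had the largest log2 ratios toward MOLT4 beside RCBTB2. COL4A2 and ABCC4 were higher in K562. The stretch at the LPAR6 start held 3 CG dinucleotides in 300 bases, and those of SLAIN1, COL4A2 and ABCC4 held 25, 45 and 47. That LPAR6 start lies 31591 bases inside the gene as GENCODE draws it, so other starts of LPAR6 are not shown, and that of COL4A2 lies 1472 bases inside its gene. The sequence is that of the reference and not of the lines.

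Genes on chromosome 13 were mostly higher in MOLT4. Of the 224 genes above the floor, 168 (75%) had the higher level in MOLT4 and 56 in K562, beside 47.8% higher in MOLT4 and 52.2% in K562 over all 14112 genes above the floor in the series. The median level was 12.6 FPKM in MOLT4 and 7.82 in K562. The median of log2((MOLT4 + 1)/(K562 + 1)), a ratio that understates the change of low genes, was 0.62, with quartiles at 0.01 and 1.15, which is 1.54-fold toward MOLT4 at the median. Over all genes of the series above the floor the median was -0.06, and over those of the other chromosomes it was -0.07, with quartiles at -0.86 and 0.61. Summed over the chromosome, expression came to 11161 FPKM in MOLT4 and 6752 in K562, or 1.78% and 0.998% of all FPKM in each line.

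**Figure D1:**
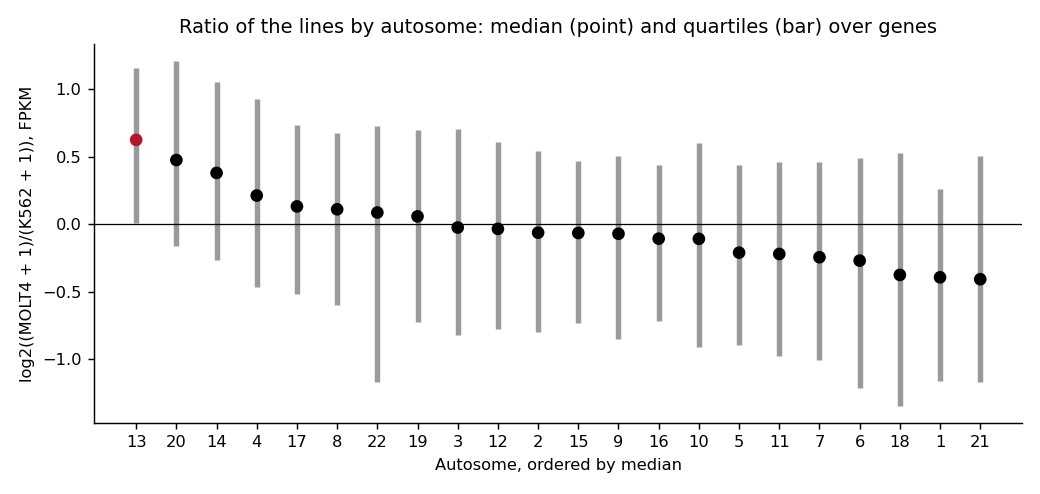
Median (point) and quartiles (bar) over genes of the log2 ratio of MOLT4 to K562, with 1 FPKM added to each level, for each autosome (horizontal axis, ordered by median). Chromosome 13, in red, has the highest median, 0.62, followed by chromosomes 20 and 14 at 0.47 and 0.38.

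Among the 22 autosomes the median of chromosome 13 was the highest. Chromosome 20 followed with a median of 0.47 over 363 genes, chromosome 14 with 0.38 over 482 genes and chromosome 4 with 0.21 over 490 genes, while the lowest was chromosome 21 with -0.41. The quartile ranges of all these chromosomes overlapped. By the authors' deposited table, 144 of the 313 tested genes on chromosome 13 (46.0%) were called, beside 42.2% of all tested genes. Of the 313, 106 (33.9%) were higher in MOLT4 and 38 (12.1%) in K562, beside 18.8% and 23.4% of all tested genes. Of the 223 tested genes above the floor, 120 (53.8%) were called by the authors' deposited table, beside 46.0% of all such genes. They were 95 higher in MOLT4 (42.6%, beside 20.8%) and 25 higher in K562 (11.2%, beside 25.3%). At least a 2-fold higher level in MOLT4 was seen for 85 of the 224 genes (37.9%, beside 19.6% of all genes above the floor), and at least a 2-fold higher level in K562 for 31 (13.8%, beside 24.7%). Because the chromosome was chosen on these ratios, nothing further is read from the shares.

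**Figure D2:**
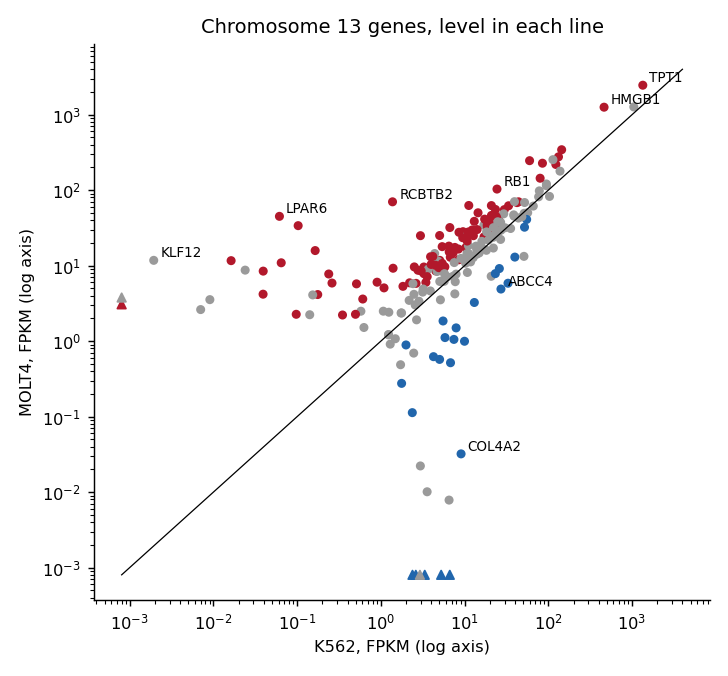
Level of each of the 224 chromosome 13 genes above the floor in K562 (horizontal) and MOLT4 (vertical), both in FPKM on log axes. Red and blue points were called higher in MOLT4 and in K562 in the authors' deposited table and grey points were not called. Triangles mark a listed 0, drawn at the edge, and the line marks equal levels. Points gather just above the line, and 168 of the 224 lie on the MOLT4 side.

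Abundant genes and genes low in a line both leaned to MOLT4. Where both lines reached 10 FPKM, 79 of 95 genes (83.2%) were higher in MOLT4, with a median log2 ratio of 0.47 and a range from -1.87 to 2.38. The other chromosomes had 5975 such genes, with 46.8% higher in MOLT4 and a median of -0.06. Of the other 129 chromosome 13 genes, those under 10 FPKM in a line, 89 were higher in MOLT4 and the median log2 ratio was 0.78. The matching values of the other chromosomes are not given for these low genes. In all, 71 of the 224 genes (31.7%) differed by less than 1.5-fold, against 38.6% of the genes of other chromosomes.

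Along the chromosome nearly all window medians lay above 0. Cut into 5 Mb steps by the start of the authors' locus, the 224 genes fell into 19 windows, 16 of them with at least 3 genes. Of these 16 windows, 15 had a median log2 ratio above 0, beside 42.4% of the 519 such windows of the other autosomes. The median was above 0.6 in 9 of the 16 windows (56.2%), beside 9.63% of the windows of the other autosomes. The level of 0.6 lies near the chromosome's own median log2 ratio of 0.62, so nothing further is read from this share. Chromosome 20 had 13 windows with all 13 medians above 0 and 7 above 0.6, chromosome 14 had 14 of 16 above 0 and 4 above 0.6, and chromosome 22 had 5 of 8 above 0 and 1 above 0.6.

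**Figure D3:**
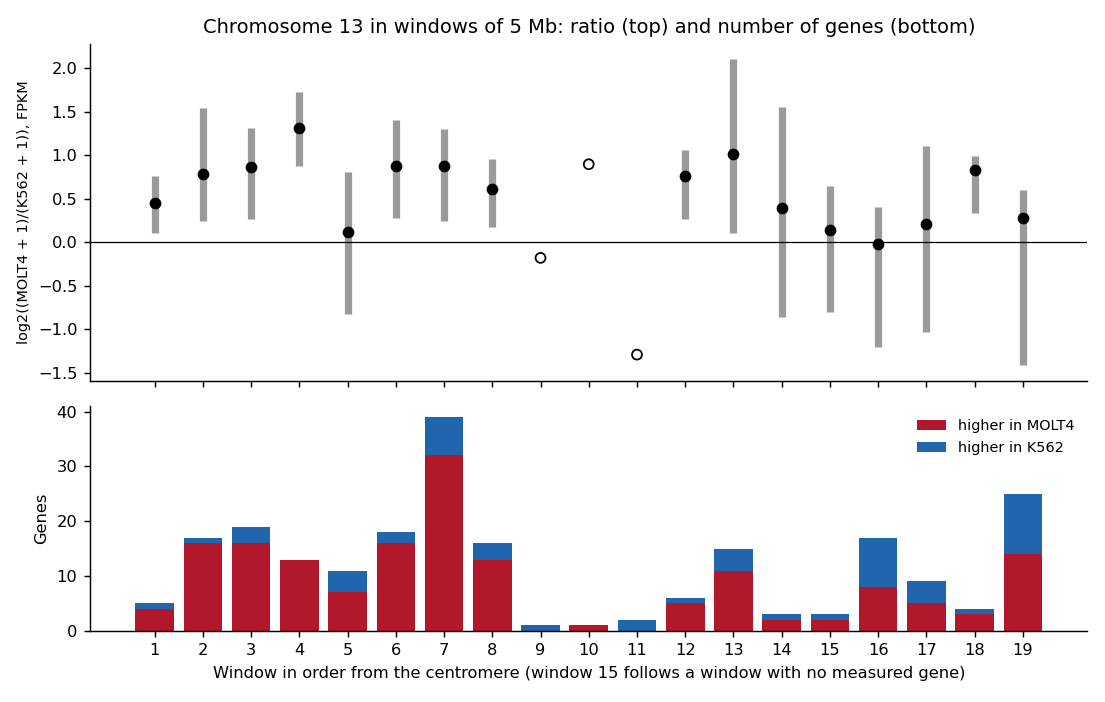
Chromosome 13 in windows of 5 Mb, numbered in order from the centromere. The upper panel gives the median (point) and quartiles (bar) of the log2 ratio of MOLT4 to K562, with open points for windows of fewer than 3 genes, and the lower panel gives the number of genes higher in each line. Medians lie between 0.11 and 1.31 in windows 1 to 8 and between -0.02 and 0.83 in windows 15 to 19.

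Near the centromere the genes leaned to MOLT4. From 15 to 20 Mb the median log2 ratio over 5 genes was 0.45, and from 20 to 25 Mb it was 0.78 over 17 genes, 16 of them higher in MOLT4. It was 0.87 over 19 genes from 25 to 30 Mb. The highest of the 16 window medians was 1.31, from 30 to 35 Mb, where all 13 genes were higher in MOLT4 and 9 were called in the authors' deposited table. That window held HMGB1, PDS5B, BRCA2, N4BP2L1 and RFC3.

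From 35 to 40 Mb the median log2 ratio was 0.11 over 11 genes, 7 of them higher in MOLT4, with quartiles at -0.82 and 0.80. The authors' deposited table called 4 of the 11 for MOLT4, namely RFXAP, SUPT20H, PROSER1 and COG6, and 3 adjoining genes for K562. SOHLH2, which encodes a transcription factor of germ cells (chromosome 13, 36168208 to 36214615), reached 5.25 FPKM in K562 but was listed at 0 in MOLT4. Its neighbour CCDC169 (36222008 to 36297840) was at 6.65 FPKM in K562 and was also listed at 0 in MOLT4. SOHLH2 and CCDC169 share a locus in the authors' deposited table, so their values may not be independent. SPART, which encodes spartin of lipid droplets and endosomes (36301638 to 36370180), was at 39.8 FPKM in K562 and 12.98 in MOLT4. These 3 stood between runs of genes that were higher in MOLT4.

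From 40 to 50 Mb the genes leaned to MOLT4 again. The median log2 ratio was 0.87 over 18 genes from 40 to 45 Mb, and 0.87 over 39 genes from 45 to 50 Mb, where 32 were higher in MOLT4. It was 0.61 over 16 genes from 50 to 55 Mb. The next 3 windows, from 55 to 70 Mb, held 4 genes above the floor in all, with no window of 3 or more. DIAPH3, a formin of the actin skeleton, was at 15.96 and 18.2 FPKM in MOLT4 and K562, and PCDH9, a protocadherin, at 4.23 and 7.64 FPKM, and neither was called in the authors' deposited table. The other two were called there: TDRD3, a Tudor domain protein, at 16.6 FPKM in MOLT4 against 8.45 in K562, and the non-coding LINC00383, at 2.61 FPKM in K562 against a listed 0. Medians of 0.76 over 6 genes and 1.01 over 15 genes followed from 70 to 75 Mb and from 75 to 80 Mb.

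Beyond 80 Mb the windows differed among themselves. The median was 0.39 over 3 genes from 80 to 85 Mb, no gene above the floor started between 85 and 90 Mb, and 0.14 was the median over 3 genes from 90 to 95 Mb. From 95 to 100 Mb it was -0.02 over 17 genes, the lowest of the 16, with 8 higher in MOLT4 and 9 in K562. The last 3 windows, from 100 to 115 Mb, had medians of 0.21, 0.83 and 0.27 over 9, 4 and 25 genes. The lower quartiles from 95 to 105 Mb and from 110 to 115 Mb lay at or below -1.03, while from 105 to 110 Mb the quartiles were 0.34 and 0.99. Before 80 Mb, among windows of 3 or more genes, the lowest lower quartile was -0.82, from 35 to 40 Mb.

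Split at 85 Mb, a point chosen after the windows were seen, 166 genes lay before it and 58 after it. Before the split the median log2 ratio was 0.82, with quartiles at 0.17 and 1.36, and 136 genes (81.9%) were higher in MOLT4. After it the median was 0.15, with quartiles at -1.18 and 0.63, and 32 genes (55.2%) were higher in MOLT4. Of the 166 genes before the split, 82 were called for MOLT4 and 9 for K562 by the authors' deposited table. Of the 58 after it, 13 and 16 were called. Over all tested genes of the series above the floor, 20.8% were called for MOLT4 and 25.3% for K562. Because the split was chosen on these ratios, nothing further is read from the counts. Restricted to genes that reached 10 FPKM in MOLT4 and in K562, the medians were 0.62 over 70 genes and 0.32 over 25 genes. Higher in MOLT4 were 60 of the 70 and 19 of the 25, beside 46.8% of such genes on the other chromosomes. Nothing further is read from these counts either.

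**Figure D4:**
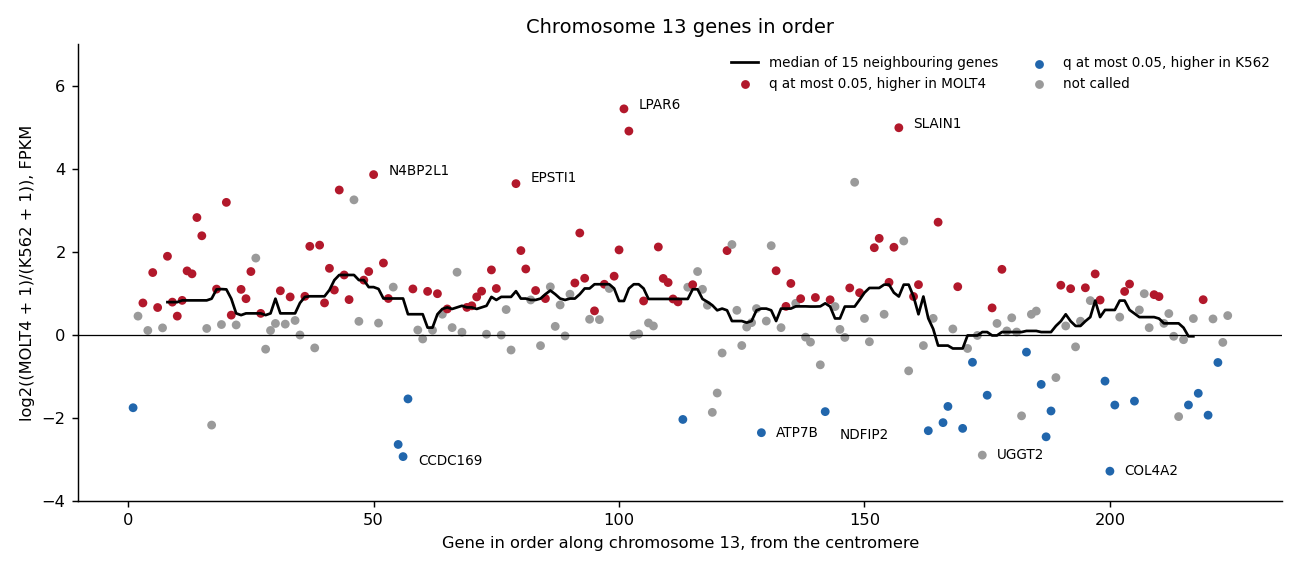
Log2 ratio of MOLT4 to K562, with 1 FPKM added, of the 224 chromosome 13 genes above the floor, in their order from the centromere. Red and blue points were called higher in MOLT4 and in K562 in the authors' deposited table, grey points were not called, and the black line is the median of 15 neighbouring genes. Blue points are few before the last 58 genes. Of those last 58, 16 are blue, beside 25.3% of all tested genes above the floor called for K562.

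Runs of neighbouring genes on the same side were longer toward MOLT4 than toward K562. With 168 of the 224 genes (75%) higher in MOLT4, longer runs on that side would come from this share alone. Runs were not set beside those of another chromosome or gene order, so nothing about position is read from them. The longest run toward MOLT4 had 16 genes, from SLC46A3 to a non-coding gene beside RFC3 (chromosome 13, 28700064 to 33966558), and 12 of them were called in the authors' deposited table. Runs of 15 genes stretched from MPHOSPH8 to MICU2 and from SUPT20H to RGCC. In all, 21 of the 33 runs toward MOLT4 had 3 or more genes, and 6 of the 33 runs toward K562 did. The longest run toward K562 had 6 genes, from ABCC4 to MBNL2 (95019829 to 97394120).

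The chromosome's most abundant transcripts had their higher values in MOLT4. TPT1, the translationally controlled tumour protein (ENSG00000133112.16, chromosome 13, 45333471 to 45341370), was at 2458 FPKM in MOLT4 and 1345 in K562, and was called in the authors' deposited table (q = 0.000203). HMGB1, an abundant protein that bends DNA (ENSG00000189403.15, 30456704 to 30617597), was at 1257 and 463 FPKM, a 2.71-fold difference that was called in the authors' deposited table (q = 0.000203). RPL21, a protein of the large ribosomal subunit, was at 1267 and 1051 FPKM and was not called in the authors' deposited table (q = 0.280). These 3 with LCP1 and GTF3A made up 50.2% of the chromosome's summed FPKM in MOLT4 and 46.4% in K562. HMGB1 and RPL21 have many near-identical pseudogenes, so their values are uncertain.

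RB1 was higher in MOLT4. With 1 FPKM added, LPAR6 and RCBTB2, inside the RB1 span, had the first and the third largest log2 ratios toward MOLT4 on the chromosome. The order depends on that addition. Without it KLF12, which was not called in the authors' deposited table, was 6081-fold higher in MOLT4. LPAR6 was 733-fold, EPSTI1 717-fold and RCBTB2 50.9-fold higher there. RB1 (ENSG00000139687.15, chromosome 13, 48303726 to 48599436, plus strand) was at 103 FPKM in MOLT4 and 24.4 in K562, 4.24-fold higher in MOLT4 and called in the authors' deposited table (q = 0.000203). LPAR6, a receptor for lysophosphatidic acid (ENSG00000139679.15, 48389567 to 48444704, minus strand), lies inside the annotated span of RB1 and was at 45.0 FPKM in MOLT4 and 0.0614 in K562. RCBTB2, which encodes a protein with RCC1 repeats and a BTB domain (48488959 to 48533256, minus strand), was at 70.1 FPKM in MOLT4 and 1.38 in K562. Both were called in the authors' deposited table (q = 0.000203), with log2 ratios of 5.44 and 4.90. All 3 genes share a locus in the authors' table and no source used here says whether counting used strand, so reads in shared stretches cannot be told apart. Nearby, ITM2B, a membrane protein processed in the secretory pathway, was at 228 and 85.1 FPKM, and MED4, a Mediator subunit, at 55.5 and 23.4 FPKM in MOLT4 and K562.

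Genes of cell cycle control were called in both directions. Of 11 measured genes in the list of tumour suppressors and cell cycle control, RB1 among them, 7 had the higher value in MOLT4. The authors' deposited table called 5 (45.5%) higher in MOLT4 and 2 in K562. The median log2 ratio was 0.84 against -0.06 over all genes above the floor. Among tested genes above the floor, 20.8% of all genes were called for MOLT4 and 25.3% for K562 by the authors' deposited table, and 42.6% and 11.2% of those on chromosome 13. The share of this list and of those that follow is set beside these, and nothing particular to a list is read from it. TFDP1, the DP1 partner of E2F factors, was at 144 FPKM in MOLT4 and 79.8 in K562 and was called in the authors' deposited table. Called for K562, per the authors' deposited table, were CDC16, a subunit of the anaphase-promoting complex, at 52.0 against 32.3 FPKM, and IRS2, an insulin receptor substrate, at 1.77 against 0.275 FPKM. CUL4A, a ubiquitin ligase scaffold, was at 42.7 and 43.9 FPKM in MOLT4 and K562, and the Mediator kinase gene CDK8 at 17.1 and 22.1 FPKM, and neither was called in the authors' deposited table. FOXO1 and LATS2 did not reach the floor, with 0.318 FPKM in both lines for FOXO1.

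DNA replication and repair genes had the higher value in MOLT4 for all 10 in the list. Of the 10, 7 (70%, beside 20.8% of all genes and 42.6% of the chromosome's) were called for MOLT4 and none for K562 by the authors' deposited table, with a median log2 ratio of 1.00. RNASEH2B, a subunit of the nuclease that removes RNA from DNA (ENSG00000136104.20, chromosome 13, 50909678 to 51024120), was at 246 FPKM in MOLT4 and 59.7 in K562, 4.12-fold higher. PDS5B, a regulator of cohesin, was at 50.2 and 14.5 FPKM, and RFC3, a subunit of the clamp loader, at 62.1 and 33.5 FPKM. These 3 were called in the authors' deposited table, whereas CHAMP1, a kinetochore protein, at 37.4 and 27.0 FPKM, was not.

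Genes of chromatin and transcription leaned the same way. The authors' deposited table called 9 of the 14 measured (64.3%, beside 20.8% of all genes and 42.6% of the chromosome's) for MOLT4 and none for K562, and 13 had the higher value in MOLT4 (median log2 ratio 0.98). GTF3A, the factor TFIIIA of 5S RNA genes, was at 276 FPKM in MOLT4 and 132 in K562. SAP18, of a histone deacetylase complex, was at 219 and 123 FPKM, and the ETS factor ELF1 at 70.1 and 44.1 FPKM. All 3 were called in the authors' deposited table. POLR1D, a subunit shared by RNA polymerases I and III, was at 121 and 95.0 FPKM and was not called there. KLF12, a repressor of the Krüppel-like family, was at 11.8 FPKM in MOLT4 and 0.00193 in K562 and yet was not called in the authors' deposited table (q = 0.340).

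Spindle and centrosome genes included some that were nearly level. Of 11 measured, 4 (36.4%, beside 20.8% of all genes and 42.6% of the chromosome's) were called higher in MOLT4, 1 was called higher in K562 and 6 were not called in the authors' deposited table, with a median log2 ratio of 0.23. SKA3, which couples kinetochores to microtubules, was at 62.5 FPKM in MOLT4 and 20.9 in K562. MZT1 and TUBGCP3, of the gamma-tubulin complex, were at 43.9 and 24.9 FPKM in MOLT4, and at 24.1 and 12.7 in K562. CKAP2, a microtubule-associated protein, was at 68.4 and 42.3 FPKM. SUGT1, a cochaperone of kinetochore assembly, was nearly level at 49.4 and 51.5 FPKM. The gene called higher in K562 was TUBA3C, an alpha-tubulin gene at the centromere end, at 2.39 FPKM against a listed 0, and tubulin genes have near-identical copies.

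RNA processing genes had the higher value in MOLT4 for 11 of 14 measured. Of the 14, 5 (35.7%, beside 20.8% of all genes and 42.6% of the chromosome's) were called higher in MOLT4 and 1, the splicing regulator gene MBNL2, higher in K562, per the authors' deposited table (median log2 ratio 0.79). MBNL2 was at 23.3 FPKM in K562 and 7.84 in MOLT4. RBM26, an RNA-binding protein, was at 41.3 FPKM in MOLT4 and 17.4 in K562, the nucleoporin gene NUP58 at 55.2 and 29.8 FPKM, and PSPC1, of paraspeckles, at 35.6 and 20.5 FPKM. EXOSC8, a subunit of the RNA exosome, was at 61.5 and 66.2 FPKM, and UPF3A, of nonsense-mediated decay, at 31.0 and 35.5 FPKM in MOLT4 and K562. Neither of these was called in the authors' deposited table, nor was ARGLU1, at 70.4 and 39.4 FPKM (q = 0.123).

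**Figure D5:**
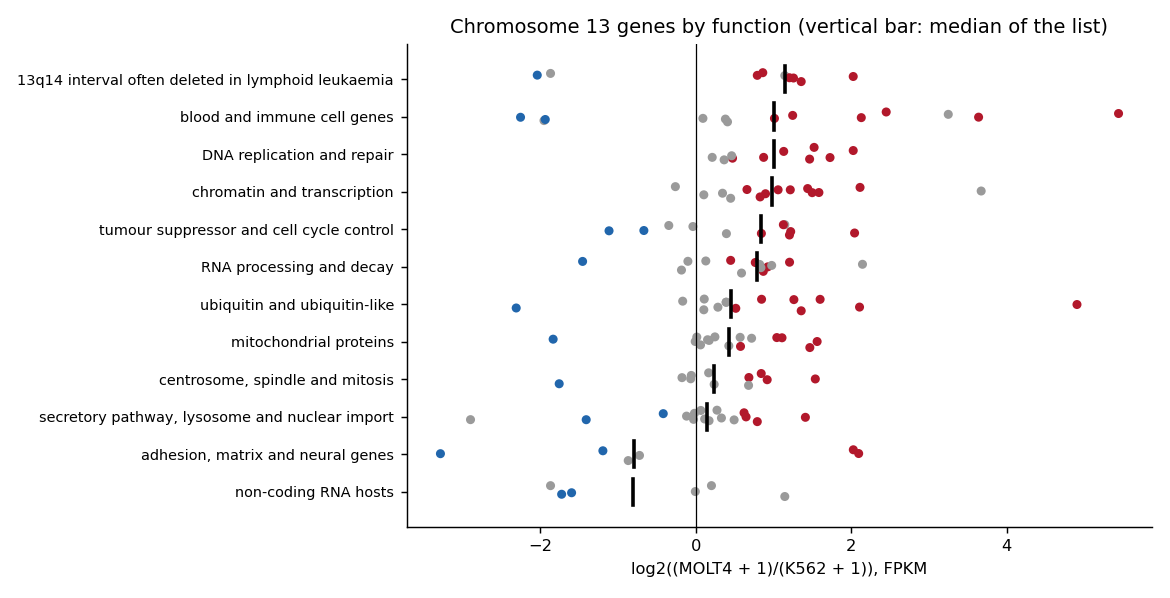
Log2 ratio of MOLT4 to K562, with 1 FPKM added, of chromosome 13 genes above the floor, grouped in 12 lists by function (rows, ordered by median). Red and blue points were called higher in MOLT4 and in K562 in the authors' deposited table, grey points were not called, and the vertical bar is the median of the list. The medians run from -0.80 for the list named non-coding RNA hosts to 1.14 for the band often deleted in lymphoid leukaemia.

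In the list named mitochondrial proteins, 13 of 15 measured genes had the higher value in MOLT4. The authors' deposited table called 5 of the 15 higher in MOLT4 (33.3%, beside 20.8% of all genes and 42.6% of the chromosome's). It called 1 higher in K562 and did not call 9, and the median log2 ratio was 0.42. TEX30, at 46.2 FPKM in MOLT4 and 20.9 in K562, was among the 5. Whether every member of the list is a mitochondrial protein, TEX30 included, was not checked. CARS2, the mitochondrial cysteine tRNA ligase, was at 30.1 FPKM in MOLT4 and 14.1 in K562. MICU2, a regulator of the calcium uniporter, was at 28.9 and 25.9 FPKM, and the ribosomal protein gene MRPS31 at 21.9 and 19.3 FPKM. The gene called higher in K562 was PCCA, the alpha subunit of propionyl-CoA carboxylase (chromosome 13), at 7.92 FPKM against 1.497 FPKM, and the transcript that starts beside it in the other direction, PCCA-DT, was also called in the authors' deposited table, at 9.97 against 0.995 FPKM. With ZIC2 and GGACT these made a run of 4 neighbouring genes higher in K562.

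The secretory, lysosomal and nuclear import genes had the higher value in MOLT4 for 10 of 16 measured. Of the 16, 4 (25%, beside 20.8% of all genes and 42.6% of the chromosome's) were called higher in MOLT4, 2 higher in K562 and 10 were not called in the authors' deposited table, with a median log2 ratio of 0.14. IPO5, an importin, was at 115 FPKM in MOLT4 and 94.8 in K562, LAMP1, a lysosomal membrane protein, at 44.4 and 48.3 FPKM, and UBAC2, an endoplasmic reticulum protein, at 31.8 and 30.4 FPKM. None of these 3 was called. TM9SF2, a membrane protein of the Golgi and endosomes, was called higher in K562, per the authors' deposited table (q = 0.0381), at 55.1 against 40.9 FPKM. UGGT2, a glucosyltransferase related to the folding sensor of the endoplasmic reticulum, was at 6.52 FPKM in K562 and 0.00782 in MOLT4 and was not called in the authors' deposited table (q = 0.0789).

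In the ubiquitin list 7 of 14 measured genes (50%, beside 20.8% of all genes and 42.6% of the chromosome's) were called higher in MOLT4 and 1, NDFIP2, higher in K562, per the authors' deposited table (median log2 ratio 0.45). NDFIP2, an adaptor of NEDD4-type ligases (chromosome 13, 79481124 to 79556075), reached 33.0 FPKM in K562 and 5.85 in MOLT4, 5.65-fold higher in K562. The hydrolase gene UCHL3 was at 50.3 and 56.7 FPKM, COMMD6 at 68.6 and 52.1 FPKM, and UFM1, a ubiquitin-like modifier, at 23.8 and 21.98 FPKM in MOLT4 and K562, and these 3 were not called in the authors' deposited table.

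Genes of blood and immune cells differed in both directions. Of 23 in the list 13 were measured, 6 (46.2%, beside 20.8% of all genes and 42.6% of the chromosome's) called higher in MOLT4 and 2 in K562, per the authors' deposited table (median log2 ratio 1.01). LCP1, the actin-bundling plastin of blood cells (ENSG00000136167.14, chromosome 13, 46125920 to 46211871), was at 343 FPKM in MOLT4 and 144 in K562. EPSTI1 was at 11.6 FPKM in MOLT4 and 0.0162 in K562, and RUBCNL, a regulator of autophagy, at 5.88 and 0.261 FPKM. These 3 were called in the authors' deposited table. Toward K562, ABCC4, an exporter of nucleotides and drugs (ENSG00000125257.16, 95019829 to 95301475), was at 27.2 FPKM against 4.90 FPKM in MOLT4, 5.55-fold higher, and GAS6, a ligand of the TAM receptor kinases, was at 5.03 against 0.572 FPKM. STK24, a kinase of the MST family, was nearly level at 81.6 and 76.6 FPKM. The 10 members below the floor included the receptor kinase gene FLT3, at 1.09 FPKM in MOLT4 and 0.00292 in K562.

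Most adhesion, matrix and neural genes were below the floor. Of 29 in the list 6 were measured, 2 (33.3%) called in each direction in the authors' deposited table, and the other 23 reached at most 1.17 FPKM in MOLT4 and 1.07 in K562. COL4A2, a chain of basement membrane collagen (ENSG00000134871.19, chromosome 13, 110305812 to 110513209), reached 9.07 FPKM in K562 and 0.0321 in MOLT4 and was called in the authors' deposited table (q = 0.000203). COL4A1, the chain encoded next to it and read in the other direction, was at 0.0559 FPKM in K562 and 0.0355 in MOLT4. LMO7, a protein of cell junctions, was at 9.24 FPKM in MOLT4 and 1.40 in K562. ZIC2, a zinc finger factor of the developing brain, was at 5.53 FPKM in K562 and 1.85 in MOLT4. Both LMO7 and ZIC2 were called in the authors' deposited table.

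In the band often deleted in lymphoid leukaemia, 9 of 11 genes were measured, of which 6 (66.7%, beside 20.8% of all genes and 42.6% of the chromosome's) were called higher in MOLT4 and 1 in K562, per the authors' deposited table, and the median log2 ratio was 1.14. TRIM13, a ubiquitin ligase, was at 29.7 FPKM in MOLT4 and 12.3 in K562, KPNA3, an importin alpha, at 33.0 and 18.7 FPKM, and EBPL at 34.7 and 18.6 FPKM. Between them SPRYD7 was called higher in K562, per the authors' deposited table, at 7.45 against 1.05 FPKM. DLEU1, a non-coding gene (50082171 to 50723236, plus strand), was at 51.2 FPKM in K562 and 13.3 in MOLT4, opposite in direction to DLEU2 on the minus strand, and neither was called in the authors' deposited table. DLEU1, DLEU2, TRIM13, RNASEH2B and several unnamed RNAs share a locus and partly overlap, so their values are uncertain. The list named non-coding RNA hosts had 6 measured genes, of which only DLEU2 and MIR17HG are shown here as microRNA hosts. By the authors' deposited table none was called higher in MOLT4 (beside 20.8% of all genes and 42.6% of the chromosome's). MIR17HG and LINC00346 were called higher in K562 (beside 25.3% and 11.2%). The median log2 ratio of the list was -0.80.

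Other genes nearly silent in a line were spread along the chromosome. The genes at 10 FPKM or more in MOLT4 and under 0.1 FPKM in K562 were LPAR6, EPSTI1, KLF12 and the non-coding gene LINC00426, at 10.9 against 0.0645 FPKM. No gene showed the reverse at these levels, and the share over all genes is not given. The contrast depends on the 10 FPKM level. Of the 224 genes, 6 were listed at 0 in MOLT4 and 2 in K562, and COL4A2 was at 9.07 FPKM in K562 against 0.0321 in MOLT4. SLAIN1, a protein of growing microtubule ends (ENSG00000139737.22, chromosome 13, 77697854 to 77764242), was at 33.9 FPKM in MOLT4 and 0.103 in K562, with a log2 ratio of 4.98. N4BP2L1 was at 15.8 and 0.164 FPKM, SPATA13, a guanine nucleotide exchange factor, at 8.46 and 0.0393 FPKM, and KCTD12, a subunit of GABA-B receptors, at 4.19 and 0.0391 FPKM. These 4 were called in the authors' deposited table. In the other direction ATP7B, the copper transporter of Wilson disease, was low but not nearly silent in MOLT4. It was at 6.79 FPKM in K562 and 0.517 in MOLT4, and was called in the authors' deposited table too.

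The promoters of the measured genes were rich in CG dinucleotides whichever line was higher. A RefSeq promoter of 300 bases was found for 178 of the 224 genes, of which 157 started within 1000 bases of the 5′ end of the gene in GENCODE. The median number of CG dinucleotides was 26 in the promoters of 79 genes called higher in MOLT4, 26 in those of 19 called higher in K562 and 29 in those of 80 that were not called, with the calls taken from the authors' deposited table. With only the 157 it was 27, 29 and 29, a restriction chosen after seeing the data. Among the 178 matched promoters it was 21 for the 16 measured genes under 0.1 FPKM in a line. Outside the 178 it was 4 for 196 chromosome 13 genes under 0.1 FPKM in both lines. Over all 27326 RefSeq promoters it was 14. AGATAA, searched on both strands, was in 10 of the 178 promoters (5.62%, beside 10.5% of all promoters). CCGGAAGT was in 17 (9.55%, beside 4.42%), CACCC in 119 (66.9%, beside 58.9%) and CAGGTG in 28 (15.7%, beside 20.6%). No motif contains another, and a match is a description of the letters and not a binding site.

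The members differed in kind. GENCODE types 321 of the 1398 rows as protein-coding, and 190 of these (59.2%) passed the floor, beside 58.1% of protein-coding genes on the other chromosomes. Of 254 rows typed as long intergenic RNA 6 passed, and of 297 processed pseudogenes none did. The protein-coding genes had a median log2 ratio of 0.64, with 149 of 190 higher in MOLT4, whereas the 6 long intergenic RNAs had a median of -1.13, with 2 higher in MOLT4. Just inside the floor were IRS2, at 0.275 and 1.77 FPKM in MOLT4 and K562, and DHRS12, at 1.51 and 0.627 FPKM, and just outside it were AL160254.1, listed at 0 and at 1.91 FPKM, and LINC00355, at 0.0310 and 1.85 FPKM. Of the 1174 rows below the floor, 711 were listed at 0 in both lines, and such a 0 can be an estimate that failed.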

How the data were processed

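RNA of 2 cell lines was sequenced, and groups were taken from the sample titles. The builds GRCh38.p13 and hg38, Cuffdiff, Cufflinks 2.2.2, TopHat2 2.1.1 and CASAVA 1.8.2 are named per the submitters' processing notes. The authors deposited FPKM, 1 value per gene and line, with Cuffdiff p-values and q-values. The sources used here do not give whether 3 libraries per line were combined, and with 1 library per line the q-values would compare libraries, not lines. Read counts were not used here, so depth is unknown and no interval is given. The smallest p in the authors' deposited table is 5e-05.

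Chromosome 13 rows were taken by the deposited locus. Ratios are log2((MOLT4 + 1)/(K562 + 1)) for genes with a mean of at least 1 FPKM, in 5 Mb windows by locus start, with medians given for at least 3 genes. The 78 rows of the series with a status of HIDATA or FAIL, none on chromosome 13, were left out. GENCODE release 29 (GRCh38) supplied positions and gene types, matched without version for 95.4% of the 1398 rows. No test was refitted. Named genes were the 12 largest called ratios each way, genes at 10 FPKM or more in a line and under 0.1 FPKM in the other, the 5 most abundant, the most abundant of each window and up to 6 members of each of 12 lists, and others are given as neighbours of these or as exceptions, chosen after their values were seen. Members and lists were chosen with earlier results of these data known. The window code was tested on simulated data. Alternatives were the pseudocount, the floor, the window, the gene type, shared loci, centring, the q threshold and, added later, the promoter start. Python 3.11.15 with pandas 2.3.3 was used. DNA copy number was not analysed here, and a few genes are not reported here.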

Additional observations from a re-analysis of the deposited data

How the results depend on the processing

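The median log2 ratio of chromosome 13 lay between 0.58 and 0.73 under 8 of 9 alternatives, and was 0 with no floor on low values, since 711 rows are listed at 0 in both lines. With no floor 1 window had a median above 0 and 0 had a median below 0. The single window below 0 (95 to 100 Mb) was no longer below 0, leaving 0 such windows, at a mean of at least 5 FPKM, at 1 FPKM or more in both lines, after centring on the other chromosomes, and with protein-coding genes alone, while windows of 2.5 Mb gave 4 below 0. Genes called higher in K562 were 25 with the floor in place of 38 without it. None of the alternatives reversed a called gene among those named. The size of a ratio did depend on the pseudocount where a level was low. With 0.1 FPKM added in place of 1, the log2 ratio of LINC00539 went from 2.82 to 4.54, while that of SAP18 stayed at 0.83. No paired analysis was possible because each line has 1 value per gene. For the same reason no sample could be left out, and low values, whose depth is unknown, are the least certain.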

Other observations

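Genes below the floor were called in both directions. Of the 90 chromosome 13 genes tested at a mean under 1 FPKM, the authors' deposited table called 11 for MOLT4 and 13 for K562. In the series, 3551 of 18870 tested genes were called for MOLT4 and 4407 for K562. Above the floor these were 2927 and 3562 of 14103. Nothing particular to chromosome 13 is read from its counts. Whether they differ from the genes above the floor was not tested. The summed level of the chromosome was held by few genes in both lines, and 217 genes reached 1 FPKM in MOLT4 and 211 in K562. The microRNA hairpin rows above 0 were MIR3665, at 3.78 FPKM in MOLT4 but listed at 0 in K562, inside the SLAIN1 locus, and MIR8075, at 2.92 FPKM in K562 but listed at 0 in MOLT4, in the locus of PCID2 and CUL4A. Reads of the longer transcripts around them cannot be told apart from theirs.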
